A study of Mus musculus with 516 samples.

Results

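Il6, Lifr and Csf1 are 3 of the 11251 genes counted in 516 cells, each sequenced singly, from the dorsal root ganglia of mice, which hold the cell bodies of sensory neurons. They were chosen by name as genes of cytokine signalling, and each has its own row of counts. The cells came from CAST/Ei mice, a wild-derived inbred strain, and from C57BL/6 mice, a standard laboratory strain. Cultured cells, labelled injured, had been dissociated and plated on bare plastic for 48 h as an axotomy in vitro, were given ara-C, which blocks dividing cells, at 24 h, and were taken off the plastic with trypsin. Naive cells were captured after dissection without plating. Cultured CAST/Ei cells made up 19.2% of the 516, naive CAST/Ei cells 33.7%, cultured C57BL/6 cells 21.5% and naive C57BL/6 cells 25.6%. All 4 groups were cleared of myelin on Percoll, stained for viability and captured on a microfluidic chip. Labels name no animal, sex, age, culture or capture run. Each group was therefore treated as 1 sample, so that no p-value is given and no difference has a replicate check. Since naive and cultured cells are different cells, altered expression and an altered choice of surviving cells cannot be told apart.

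The table holds 496696577 reads, between 13932 and 2978345 per cell, with medians of 1111710 in cultured and 960205 in naive CAST/Ei cells, and 729522 in cultured and 696013 in naive C57BL/6 cells. Cells were sorted into 14 clusters without the 3 genes and their pathway partners. Neuron-like clusters held 73.7% of cultured and 89.7% of naive CAST/Ei cells and 30.6% of cultured and 63.6% of naive C57BL/6 cells. Cultured ones lay in clusters 1 and 5, except 1 cell, and naive ones in clusters 2, 4 and 9 to 14. Glia-like cells (cluster 6) numbered 13 in cultured CAST/Ei and 34 in cultured C57BL/6, and fibroblast-like cells (cluster 3) 13 and 43, with no naive cell in either class. The neuron-like and glia-like clusters have none of their own markers among their 10 leading genes, and were named by the mean of the marker list. The fibroblast-like cluster has 1, Fn1. Cluster 7, led by the interferon-induced gene Tgtp2 and the endothelial receptor gene Flt1, stayed unnamed, with 18 naive CAST/Ei and 16 naive C57BL/6 cells. The sum of its fibroblast markers had a median of 1017 CPM in CAST/Ei and 7158 CPM in C57BL/6 cells. For its glial markers the medians were 15052 and 4634 CPM. Strain comparisons within cluster 7 therefore set cells of unlike marker levels side by side. Cluster 8, of 32 naive C57BL/6 cells, also stayed unnamed, because Rgs5, a gene of mural cells, is among its 10 leading genes and no neuron marker is, although its mean log2(CPM + 1) over the neuron markers was 8.32, within the 7.10 to 9.10 of the neuron-like clusters.

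Interleukin 6, the product of Il6, is an inflammatory cytokine that signals through its own receptor and the shared subunit gp130, encoded by Il6st. Lifr encodes the leukaemia inhibitory factor receptor, which pairs with gp130 to bind leukaemia inhibitory factor, ciliary neurotrophic factor and related cytokines, and both receptor complexes act through JAK kinases and the transcription factor STAT3. In sensory neurons this route is known for its part in the response to nerve injury. Colony stimulating factor 1, the product of Csf1, is a growth factor of macrophages and microglia that binds the receptor encoded by Csf1r, and it is known to be made by sensory neurons after peripheral nerve injury.

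Il6 lies on the plus strand of mouse chromosome 5 (chr5:30013114-30019981, GRCm38, the assembly also called mm10), Lifr on the plus strand of chromosome 15 (chr15:7090614-7197489) and Csf1 on the minus strand of chromosome 3 (chr3:107741048-107760469). No other annotated gene overlaps any of them. The 250 bases upstream of the start of Il6 and of Csf1, from RefSeq on GRCm38.p6, are printed because these are the ligands, read in part of the cells and, for Csf1, higher in culture in both strains. Capitals mark matches to motifs of inflammatory and injury transcription factors, which were chosen with these sequences in view.
Il6 upstream, chr5:30012864-30013113, plus strand: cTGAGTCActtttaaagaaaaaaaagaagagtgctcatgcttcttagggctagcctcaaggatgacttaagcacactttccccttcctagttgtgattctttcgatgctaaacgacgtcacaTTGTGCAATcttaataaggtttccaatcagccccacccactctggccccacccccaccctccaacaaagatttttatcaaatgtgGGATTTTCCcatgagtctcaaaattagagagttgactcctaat
Csf1 upstream, chr3:107760470-107760719, minus strand: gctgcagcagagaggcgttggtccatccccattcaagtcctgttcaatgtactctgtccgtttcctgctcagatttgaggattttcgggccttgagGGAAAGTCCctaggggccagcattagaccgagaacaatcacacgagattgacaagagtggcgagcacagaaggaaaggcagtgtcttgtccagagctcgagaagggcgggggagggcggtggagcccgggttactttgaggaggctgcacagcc
The Il6 stretch holds a match to the AP-1 letters TGANTCA at its far end, to the C/EBP letters TTGNGCAAT near its middle and to the NF-kB letters GGANTTTCC 43 bases before the start. The Csf1 stretch holds a match to the NF-kB letters on the other strand. Of 32851 windows of the same length upstream of genes, 1.07% hold the NF-kB letters on either strand, 0.539% those of C/EBP and 6.75% those of AP-1. Also searched on both strands were the cAMP response element TGACGTCA (1.55% of windows), the STAT letters TTCNNNGAA (7.02%) and the TATA box TATAAA (12.4%), with no match in either stretch, and no 2 matches overlap. Neither of the windows listed for Lifr holds any of these letters. The matches describe these letters, and no binding was measured.

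Reads were summed over the cells of a class in a group and given as CPM, counts scaled to the total reads of those cells, with exact 95% Poisson intervals in brackets. Reads carry no molecular identifiers, so intervals here and below cover counting error only. A difference between groups is given as the log2 of their ratio after adding 1 CPM to each, and 2-fold or more means at least 1 on that scale. Among neuron-like cells, Csf1 was higher in cultured than in naive cells of both strains, while Il6 and Lifr were lower in cultured than in naive C57BL/6 cells and near equal in CAST/Ei. In CAST/Ei, 1 of the 3 genes was higher by 2-fold or more in cultured cells and 0 lower, where 23.8% of all genes were higher and 20.7% lower. In C57BL/6, 1 was higher by that much and 1 lower, where 21.1% of all genes were higher and 23.1% lower. Between strains, 0 were higher and 1 lower in naive CAST/Ei than in naive C57BL/6 neuron-like cells, where 8.3% of all genes were higher and 6.43% lower. In the cultured cells 1 was higher and 0 lower in CAST/Ei than in C57BL/6, where 22.9% were higher and 13.2% lower. The median log2 ratio of all genes was -0.12 for culture in C57BL/6 and 0.24 between the cultured strains, so values of these comparisons carry that shift.

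Il6, the ligand, was read in a minority of the neuron-like cells of each group, and the 5 highest cells of a group held between 54.7% and 97.6% of its reads. Cultured CAST/Ei neuron-like cells had a lowest and a median value of 0 and a highest of 468 CPM, and naive ones 0, 0 and 910 CPM. Cultured C57BL/6 neuron-like cells had a lowest and a median of 0 and a highest of 189 CPM, and naive ones 0, 0 and 241 CPM. The groups overlapped throughout, since most cells of each had no Il6 read. At least 1 read was found in 19 of 73 cultured and 64 naive CAST/Ei cells (41.03%), and in 9 of 34 cultured and 32 of 84 naive C57BL/6 cells. To set cells of unequal depth side by side, those with at least 200000 reads were thinned to that number, and a gene was called detected from 5 thinned reads, which is 25 CPM. By that measure Il6 was detected in 6 of 65 cultured (9.23%, exact 95% binomial interval 3.46 to 19.02) and 17 naive (11.5%, 6.84 to 17.8) CAST/Ei cells, and in 5 of 28 cultured (17.9%, 6.06 to 36.9) and 18 of 78 naive (23.1%, 14.29 to 33.997) C57BL/6 cells. These intervals overlap within each strain and between strains.

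The summed level of Il6 in neuron-like cells was 31.3 CPM (30.0 to 32.5) in cultured CAST/Ei, 26.1 (25.3 to 26.9) in naive CAST/Ei, 8.86 (7.54 to 10.3) in cultured C57BL/6 and 29.7 (28.5 to 31.1) in naive C57BL/6. The log2 ratio of cultured over naive was 0.25 in CAST/Ei and -1.64 in C57BL/6, and that of CAST/Ei over C57BL/6 was -0.18 in naive and 1.71 in cultured cells. These sums rested on a minority of the cells. In cultured CAST/Ei 3 of 73 cells held 90% of the reads, against 12 cells in naive CAST/Ei, and in cultured C57BL/6 5 of 34 cells did, against 15 of 84 in naive C57BL/6. The highest cell alone held 40.97% of the reads in cultured and 43.9% in naive CAST/Ei cells, and 43.8% in cultured and 21.1% in naive C57BL/6 cells. With each cell given equal weight, the log2 ratio for culture was 0.04 in CAST/Ei and -0.81 in C57BL/6, and with thinned cells it was -0.02 in CAST/Ei and -0.75 in C57BL/6. Between the cultured strains it was then 0.65 and 0.55, short of 2-fold. All Il6 reads of cultured C57BL/6 neuron-like cells fell in cluster 1 (14.02 CPM), with none in the 8 cells of cluster 5, which allows up to 0.451 CPM as 3 reads. In cultured CAST/Ei cluster 1 had 23.3 CPM and cluster 5 35.6 CPM, but 2 of 39 cluster 5 cells held 90% of its reads. Il6 was detected in 2 of 34 thinned CAST/Ei cluster 5 cells (0.72 to 19.7%) and 0 of 7 C57BL/6 ones (0 to 40.96%). These intervals overlap, so no strain difference is shown in cluster 5. Without the highest cell of each, cluster 1 had 5.55 CPM in CAST/Ei and 8.15 CPM in C57BL/6.

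**Figure D1:**
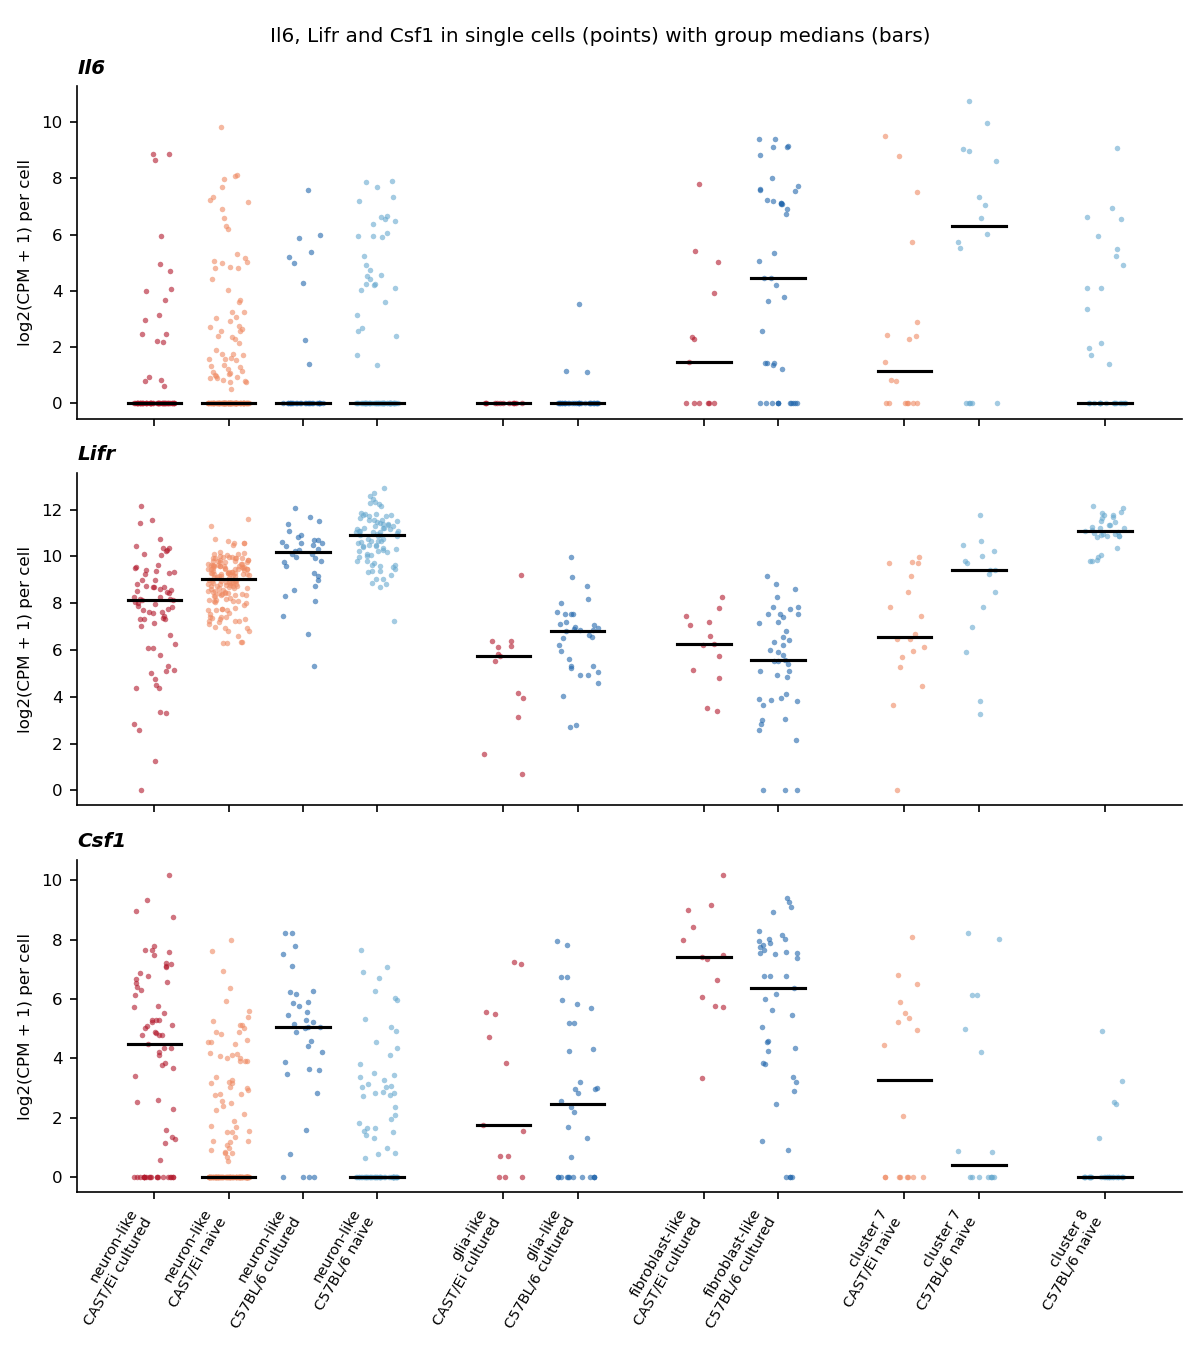
Each point is 1 cell and each bar the median of its class and group, on a log2(CPM + 1) axis per gene for Il6, Lifr and Csf1. Il6 medians lie at 0 in every neuron-like group, Lifr points of naive C57BL/6 neuron-like cells lie above most of those of naive CAST/Ei, and Csf1 medians leave 0 in the cultured neuron-like groups.

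The few cells that held most Il6 reads in culture were also described by their fibroblast markers. Of the 160 Il6 reads in cultured C57BL/6 neuron-like cells, 2 remained in the 16 cells whose fibroblast marker mean was not above the median of all cultured neuron-like cells. Of the 2492 reads in cultured CAST/Ei neuron-like cells, 2441 remained in the 38 cells chosen the same way. In cultured CAST/Ei, though, 3 cells held 90% of the reads. By cell the contrast was smaller, as 8 of 19 CAST/Ei and 2 of 9 C57BL/6 cells with a read remained. Without the cells high in fibroblast markers the log2 ratio of culture was 1.18 in CAST/Ei, from 56.8 against 24.5 CPM. In C57BL/6 it was -4.60, from 0.211 against 28.4 CPM. Without the cells high in glial markers, chosen in the same manner, it was 1.68 in CAST/Ei and -2.79 in C57BL/6. That cut left 14 of 34 cultured and 72 of 84 naive C57BL/6 cells. The C57BL/6 value rested on 31 reads in 1 of those 14 cells, 3.67 against 31.3 CPM. Summed over the 14 fibroblast markers in the table of 15 listed, the 6 cultured CAST/Ei neuron-like cells with Il6 detected had a median of 1476 CPM (356 to 3044) and the 59 without it 1899.8 (15.7 to 9683). In cultured C57BL/6 the 5 cells with Il6 had a median of 4619 CPM (1428 to 7849) and the 23 without it 1107.5 (15.5 to 6748). All 14 markers had reads in both cultured neuron-like groups, among them the defining markers Col1a1, Col1a2 and Dcn. The part that RNA of other cells played in these Il6 values was not tested.

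In C57BL/6 the highest Il6 levels lay outside the neuron-like class. By summed level in CAST/Ei, cluster 7 stood above the neuron-like cells as a class and below their naive cluster 4. Without the highest cell of each, cluster 7 stood above cluster 4, at 44.7 against 36.4 CPM. In CAST/Ei cluster 7, 3 of 18 cells held 90% of the reads. The summed level of CAST/Ei fibroblast-like cells was below that of the cultured neuron-like cells, but their intervals overlapped. By cell the fibroblast-like median was higher, 1.80 against 0 CPM, and 7 of 13 against 19 of 73 cells had a read. Cluster 7 had 65.3 CPM (61.3 to 69.5) in naive CAST/Ei and 252 CPM (245 to 260) in naive C57BL/6, where the highest cell, at 1712 CPM, held 43.1% of the reads. Fibroblast-like cells had 28.1 CPM (25.5 to 30.8) in cultured CAST/Ei and 131.5 CPM (128.4 to 134.8) in cultured C57BL/6, a log2 ratio of -2.19. By cell, fibroblast-like values were 0 at the lowest, 1.80 at the median and 220 CPM at the highest in CAST/Ei, and 0, 21.1 and 677 CPM in C57BL/6, so that the strains overlapped. Il6 was detected in 3 of 12 CAST/Ei cells (5.49 to 57.2% of cells) and 23 of 39 C57BL/6 cells (58.97%, 42.1 to 74.4), and 1 cell held 81.9% of the CAST/Ei reads. Without that cell the CAST/Ei level was 5.68 CPM, and without the highest C57BL/6 cell the C57BL/6 level was 116.1 CPM. Il6 was thus the 1 of the 3 genes that was lower by 2-fold or more in CAST/Ei fibroblast-like cells, with 0 higher, where 16.8% of all genes were lower and 14.5% higher.

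Glia-like cells had hardly any Il6. No read fell on it in the 13 cultured CAST/Ei cells (0 CPM, 0 to 0.204), and 10 reads fell on it in 3 of the 34 cultured C57BL/6 cells (0.333 CPM, 0.160 to 0.612). In glia-like cells 1 of the 3 genes, Csf1, was higher by 2-fold or more and 0 lower in CAST/Ei, where 15.8% of all genes were higher and 19.9% lower. In order of summed level, naive C57BL/6 cluster 7 stood above cultured C57BL/6 fibroblast-like cells and naive CAST/Ei cluster 7. Then followed naive C57BL/6 cluster 8 (33.7 CPM), cultured CAST/Ei and naive C57BL/6 neuron-like cells, cultured CAST/Ei fibroblast-like cells and naive CAST/Ei neuron-like cells, where each neighbour's interval overlapped the next. Cultured C57BL/6 neuron-like cells and both glia-like groups came last. Interquartile ranges of single cells overlapped between all neighbours in this order.

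Within naive neuron-like cells, Il6 was highest in cluster 4, led by Zcchc12, the calcium channel gene Cacna1e and the substance P gene Tac1, and the largest naive cluster with cells of both strains. In CAST/Ei its 28 cells had a lowest value of 0, a median of 3.60 and a highest of 909.8 CPM, and in C57BL/6 its 22 cells had 0, 59.7 and 241 CPM. The summed level of cluster 4 was 94.98 CPM in naive CAST/Ei against 10.1 CPM in the other neuron-like clusters, a log2 ratio of 3.11, and 62.2 against 15.1 CPM in naive C57BL/6, a log2 ratio of 1.97. In CAST/Ei 1 cell held 64.2% of the cluster 4 reads, and without it the level was 36.4 CPM. In C57BL/6 the highest cell held 20.4%, and the level without it was 56.7 CPM. Il6 was detected in 8 of 27 thinned cluster 4 cells in CAST/Ei and 12 of 21 in C57BL/6. In each strain 2 of the 3 genes, Il6 and Csf1, were higher by 2-fold or more in cluster 4 and 0 lower, where 11.6% of all genes were higher and 8.77% lower in CAST/Ei, and 15.4% and 10.8% in C57BL/6. Socs3, the feedback inhibitor of gp130 signalling, was 1.76 higher on the log2 scale there in CAST/Ei and 2.04 in C57BL/6, and the galanin gene Gal had the highest ratio of all genes, 6.49 and 6.29.

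At the low end stood clusters with Mrgprd, a receptor gene of non-peptidergic nociceptors, among their leading genes. Cluster 9 of naive CAST/Ei had 2.20 CPM of Il6 (1.69 to 2.83) and cluster 11 of naive C57BL/6 2.45 (1.73 to 3.36). Cluster 10 of naive CAST/Ei, led by Cdh9 and the enkephalin gene Penk, had 5.96 CPM, and cluster 14 of naive C57BL/6, led by Clec2l and with the heavy neurofilament gene Nefh among its leading genes, had 6.54 CPM. Among thinned naive C57BL/6 cells of the neuron-like clusters and cluster 8, Il6 was detected in 1 of 35 cells with Mrgprd detected (2.86%, 0.0723 to 14.9) and in 24 of 74 without it (32.4%, 22.005 to 44.3). In naive CAST/Ei the shares were 7 of 61 (11.5%, 4.74 to 22.2) and 10 of 87 (11.5%, 5.65 to 20.1), with no such gap in detection. The mean thinned Il6 level was lower with Mrgprd than without it in both strains. It was 10.4 against 27.9 CPM in CAST/Ei and 2.29 against 39.1 CPM in C57BL/6. In naive CAST/Ei neuron-like cells, though, 1 cell held 43.9% of all Il6 reads. Naive CAST/Ei neuron-like cells with Il6 detected had a median of 344.5 CPM summed over the fibroblast markers and 65.1 CPM over the endothelial markers, 9 in the table of 11 listed, against 49.1 and 5.76 CPM in cells without it. In naive C57BL/6 the fibroblast medians were 32.2 and 39.7 CPM and the endothelial ones 12.3 and 5.59 CPM. All 14 fibroblast and all 9 endothelial markers had reads in both naive neuron-like groups, and their part in the Il6 values was not tested.

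**Figure D2:**
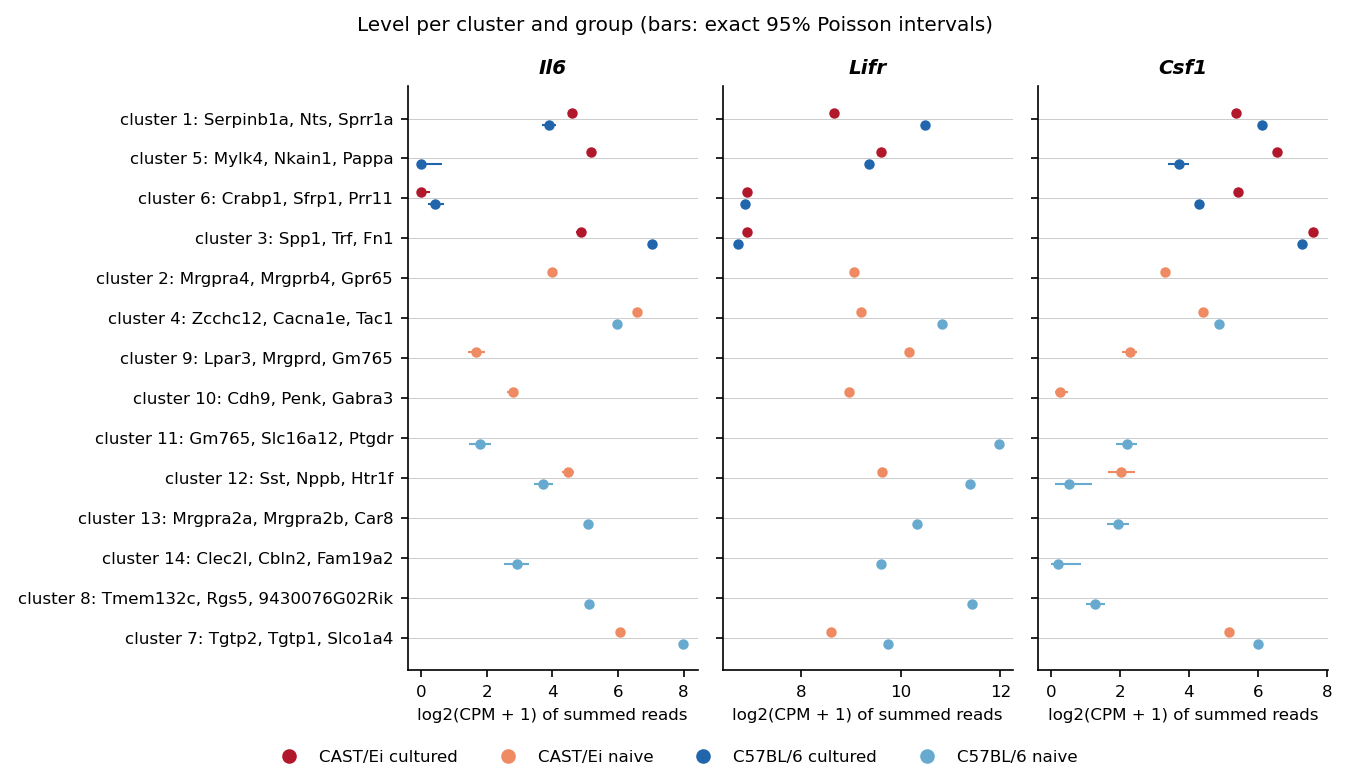
Points give the summed level of Il6, Lifr and Csf1 per cluster and group on a log2(CPM + 1) axis, for clusters with at least 5 cells of the group, with bars for exact 95% Poisson intervals, and clusters are named by their leading genes. Il6 peaks in clusters 7, 3 and 4 in C57BL/6 and in clusters 4 and 7 in CAST/Ei. Lifr peaks in naive C57BL/6 clusters 11, 8 and 12, and Csf1 in cluster 3, in cultured CAST/Ei cluster 5 and in cultured C57BL/6 cluster 1.

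Lifr, the receptor subunit, was read in nearly every neuron-like cell, in 72 of 73 cultured and every naive CAST/Ei cell and in every cultured and naive C57BL/6 cell. Cultured CAST/Ei neuron-like cells had a lowest value of 0, a median of 279 and a highest of 4617 CPM, and naive ones 78.1, 523 and 3056 CPM. Cultured C57BL/6 neuron-like cells had a lowest value of 39.3, a median of 1149.5 and a highest of 4355 CPM, and naive ones 150.7, 1902.5 and 7781 CPM. The ranges of all 4 groups overlapped, but the interquartile range of naive CAST/Ei cells (312 to 777 CPM) lay below that of naive C57BL/6 cells (1086 to 2745 CPM). In cultured cells these ranges were 98.3 to 612 CPM in CAST/Ei and 592 to 1637 CPM in C57BL/6, and met at their ends.

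Summed over neuron-like cells, Lifr stood at 659 CPM (654 to 665) in cultured and 655 CPM (651 to 659) in naive CAST/Ei, and at 1151 CPM (1135 to 1167) in cultured and 2168 CPM (2156 to 2179) in naive C57BL/6. The log2 ratio of CAST/Ei over C57BL/6 was -1.73 in naive cells, and 2.04% of all genes were further below. It was -0.80 in cultured cells, and past 2-fold there with equal weight per cell (-1.35), with thinned cells (-1.15) and with median-of-ratios scaling (-1.05). For culture over naive, Lifr had a log2 ratio of 0.01 in CAST/Ei, where the counting intervals overlapped, and of -0.91 in C57BL/6, just short of 2-fold. In CAST/Ei the sum hid a wider spread, since the median cell was lower in cultured than in naive cells while the highest was higher, and the mean over cells gave a log2 ratio of -0.23. The ratio was also below 0 with thinned cells (-0.12), without the highest cell of each group (-0.13) and with median-of-ratios scaling (-0.08). The C57BL/6 ratio was -1.03, past 2-fold, with cluster 8 counted as neuron-like and also with each cell classed by its own markers.

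Clusters with at least 5 cells of each strain were set side by side. Summed Lifr was lower in CAST/Ei in the neuron-like clusters 1, 4 and 12 and in cluster 7, and not in cluster 5. In naive cluster 4 it was 582 CPM (573 to 591) in CAST/Ei against 1804 CPM (1786 to 1822) in C57BL/6, a log2 ratio of -1.63. In naive cluster 12, led by the somatostatin gene Sst and the itch neuropeptide gene Nppb, it was 783 CPM in 13 CAST/Ei cells against 2687 CPM in 6 C57BL/6 cells. In cultured cluster 1, led by Serpinb1a, the neurotensin gene Nts and the injury gene Sprr1a, it was 400.4 CPM against 1441 CPM, a log2 ratio of -1.84. Cultured cluster 5, led by Mylk4 and Nkain1, went the other way in its summed level. It had 773 CPM (765 to 780) in 39 CAST/Ei cells against 654 CPM (634 to 674) in 8 C57BL/6 cells. The highest cells held 18.8% and 50.5% of the reads, and without them the sums were 648 and 370 CPM. By cell CAST/Ei was not higher, with a median of 199 against 326 CPM and a mean of 624.7 against 625.8 CPM. Naive cluster 7, whose marker levels differed by strain, had 387 CPM (377 to 397) of Lifr in CAST/Ei against 856 CPM (842 to 870) in C57BL/6. The log2 ratio there was -1.14, and the part of its cell mix was not tested. Lower by 2-fold or more in CAST/Ei were 1 of the 3 genes in cluster 4, 1 in cluster 1 and 2 in cluster 7, where 10.8%, 8.16% and 23.2% of all genes were, and 0 were higher by that much, where 14.7%, 10.9% and 26% were.

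Summed Lifr levels of fibroblast-like and of glia-like cells were low and about the same in both strains, but for glia-like cells this rested on 1 cell. Fibroblast-like cells stood at 118.9 CPM (113.6 to 124.4) in cultured CAST/Ei and 104.6 CPM (101.8 to 107.5) in cultured C57BL/6, a log2 ratio of 0.18. Glia-like cells stood at 118.1 CPM (113.2 to 123.2) in cultured CAST/Ei and 115.8 CPM (112.005 to 119.7) in cultured C57BL/6, a log2 ratio of 0.03, but 1 CAST/Ei cell held 67.7% of the reads and the level without it was 44.1 CPM. Fibroblast-like cells ranged from 9.45 over a median of 75.7 to 304 CPM in CAST/Ei and from 0 over 46.8 to 569 CPM in C57BL/6. Set against neuron-like cells of the same culture, fibroblast-like cells were lower in Lifr by a log2 ratio of -2.46 in CAST/Ei and -3.45 in C57BL/6. In that comparison 1 of the 3 genes, Csf1, was higher and 1, Lifr, lower in CAST/Ei, where 19.6% of all genes were higher and 26.8% lower, and 2, Il6 and Csf1, were higher and 1, Lifr, lower in C57BL/6, where 25.4% and 19.9% were. The order of Lifr levels ran from cluster 8 (2773.5 CPM, naive C57BL/6) over naive and cultured C57BL/6 neuron-like cells and naive C57BL/6 cluster 7 to the neuron-like cells of CAST/Ei, naive CAST/Ei cluster 7 and the glia-like and fibroblast-like cells. Counting intervals overlapped between cultured and naive CAST/Ei neuron-like cells, and among CAST/Ei fibroblast-like cells and both glia-like groups, and were separate elsewhere in this order, while interquartile ranges of cells overlapped between all neighbours.

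Among naive sensory neurons Lifr was highest in the Mrgprd clusters of each strain, with 1145 CPM (1133 to 1158) in cluster 9 of CAST/Ei and 4014 CPM (3982 to 4046) in cluster 11 of C57BL/6. By cell these had a lowest value of 186, a median of 797.5 and a highest of 3056 CPM in CAST/Ei, and 1507, 3420.2 and 7781 CPM in C57BL/6. Lowest was cluster 14 in C57BL/6 at 769.7 CPM (749 to 791) and cluster 10 in CAST/Ei at 494 CPM (487 to 501). Over thinned naive cells of the neuron-like clusters, and cluster 8 in C57BL/6, Lifr averaged 760 CPM in 61 CAST/Ei cells with Mrgprd detected and 506 CPM in 87 without it. In C57BL/6 the averages were 3196 CPM in 35 cells with Mrgprd detected and 1814 CPM in 74 without it. Cells with the itch receptor gene Mrgpra3 detected had less Lifr than the others in both strains, 522 against 684 CPM in CAST/Ei and 1508 against 2469 CPM in C57BL/6.

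**Figure D3:**
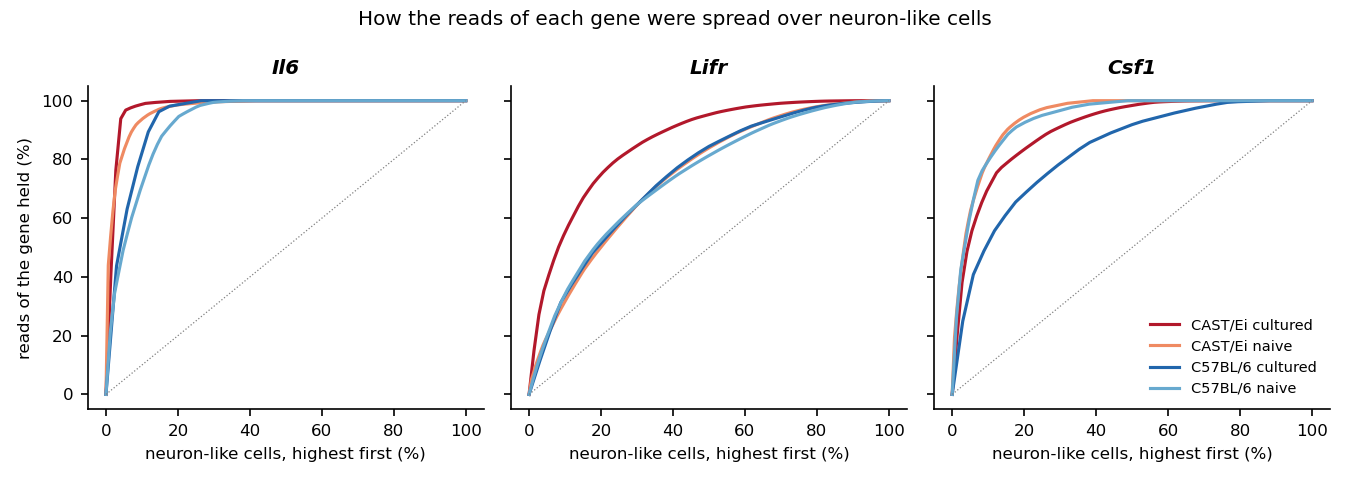
Curves show the percentage of a gene's reads held by the highest neuron-like cells of each group, against the percentage of cells, and the dotted line is an equal share per cell. Il6 curves climb steeply, with 3 to 15 cells holding 90% of the reads, while Lifr is spread over more cells and is least even in cultured CAST/Ei.

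Csf1, the other ligand, was the gene of the 3 that was higher in cultured than in naive neuron-like cells of both strains. Cultured CAST/Ei neuron-like cells had a lowest value of 0, a median of 21.5 and a highest of 1164 CPM, and naive ones 0, 0 and 255 CPM. Cultured C57BL/6 neuron-like cells had a lowest value of 0, a median of 32.5 and a highest of 301 CPM, and naive ones 0, 0 and 202 CPM. Ranges overlapped, but a read was found in 72.6% of cultured against 39.1% of naive CAST/Ei cells, and in 88.2% of cultured against 48.8% of naive C57BL/6 cells. After thinning, Csf1 was detected in 34 of 65 cultured (52.3%, 39.5 to 64.9) and 16 naive (10.8%, 6.31 to 16.96) CAST/Ei cells. In C57BL/6 it was detected in 15 of 28 cultured (53.6%, 33.9 to 72.5) and 7 of 78 naive (8.97%, 3.68 to 17.6) cells, and in neither strain did the intervals of cultured and naive cells overlap.

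The summed level of Csf1 in neuron-like cells was 75.8 CPM (73.9 to 77.7) in cultured and 7.70 CPM (7.28 to 8.15) in naive CAST/Ei, a log2 ratio of 3.14, and 3.18% of all genes had a higher ratio. It was 47.5 CPM (44.4 to 50.8) in cultured and 11.3 CPM (10.6 to 12.2) in naive C57BL/6, a log2 ratio of 1.97, and 8.86% of all genes had a higher ratio. Between strains the log2 ratio of CAST/Ei over C57BL/6 was -0.50 in naive and 0.66 in cultured cells. Of the Csf1 reads, 90% were held by 21 of 73 cultured and 24 naive CAST/Ei cells and by 16 of 34 cultured C57BL/6 cells, more cells than held that share of Il6. In naive C57BL/6 15 of 84 cells held it for either gene, and the highest cell held 26.1% of the Csf1 and 21.1% of the Il6 reads. The summed levels of the 2 cultured neuron-like clusters differed by strain. In cluster 1 Csf1 was 40.4 CPM (37.9 to 43.03) in CAST/Ei and 68.2 CPM (63.4 to 73.1) in C57BL/6. In cluster 5 it was 93.6 CPM (91.001 to 96.2) in CAST/Ei and 12.03 CPM (9.54 to 14.98) in the 8 cells of C57BL/6. By cell the CAST/Ei median was lower in cluster 5 than in cluster 1, 9.51 against 28.03 CPM. The mean was higher, 99.2 against 57.05 CPM. Csf1 was detected in 16 of 34 and 18 of 30 of their thinned cells. In CAST/Ei 10 of 39 cluster 5 cells held 90% of the reads. In C57BL/6 1 cluster 5 cell held 50%, and the level without it was 6.79 CPM.

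Other cultured cells also had Csf1. Fibroblast-like cells had the highest levels, 192 CPM (186 to 199) in cultured CAST/Ei and 154.2 CPM (150.8 to 157.8) in cultured C57BL/6, and Csf1 was detected in 11 of 12 and 29 of 39 of their thinned cells. By cell these ranged from 9.06 over a median of 170 to 1167 CPM in CAST/Ei and from 0 over 82.4 to 679 CPM in C57BL/6. Glia-like cells had 41.6 CPM (38.7 to 44.7) in CAST/Ei and 18.7 CPM (17.2 to 20.4) in C57BL/6, a log2 ratio of 1.11, though 1 cell held 48.3% of the CAST/Ei reads, which left 24.9 CPM without it. In cluster 7 the level was 34.8 CPM (31.9 to 37.9) in naive CAST/Ei and 63.3 CPM (59.6 to 67.3) in naive C57BL/6. Cluster 8 had the lowest level of these classes, 1.45 CPM (1.04 to 1.97). Neighbours in the order of levels had separate counting intervals, except cultured C57BL/6 neuron-like and cultured CAST/Ei glia-like cells, and interquartile ranges of cells overlapped between all neighbours.

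Markers of fibroblasts were higher in the cultured than in the naive neuron-like cells too. Their sum had a median of 1604 CPM (15.1 to 9683) in cultured and 49.7 CPM (0 to 6395) in naive CAST/Ei cells, and of 1176 CPM (0 to 7849) in cultured and 37.8 CPM (0 to 15938) in naive C57BL/6 cells. The glial markers, 14 in the table of 15 listed and all with reads in each group, had medians of 3088 CPM (748 to 16976) in cultured and 2099.5 (90.3 to 34882) in naive CAST/Ei cells, and of 3193 (381 to 7064) and 1535 (102.5 to 21629) CPM in C57BL/6. In cultured CAST/Ei neuron-like cells Csf1 stood at 39.4% of its fibroblast-like level, where the fibroblast genes Col1a1, Col1a2 and Dcn stood at 11.01%, 15.5% and 6.25% of theirs. In cultured C57BL/6 Csf1 stood at 30.8%, and the same 3 genes at 8.63%, 17.4% and 5.25%. Without the cells high in fibroblast markers the log2 ratio of culture was 2.97 in CAST/Ei (53.3 against 5.91 CPM) and 1.65 in C57BL/6 (35.7 against 10.7 CPM), and without the cells high in glial markers it was 3.74 and 2.06. Cd68, the only macrophage gene of 13 listed immune markers in the table, had a summed level of 18.2 CPM in cultured and 2.93 CPM in naive CAST/Ei neuron-like cells. In C57BL/6 it had 6.03 and 0.507 CPM. The median cell had 0 CPM of Cd68 in each of these groups, and the highest cultured cell had 4734 CPM in CAST/Ei and 368 CPM in C57BL/6. What part this had in the Csf1 values was not tested. The Csf1 receptor gene Csf1r was not analysed here.

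Among naive neuron-like clusters with at least 5 cells of a strain, Csf1 was highest in cluster 4 in both strains, as was Il6. Its level there was 20.4 CPM (18.8 to 22.1) in CAST/Ei against 4.77 CPM in the other neuron-like clusters, a log2 ratio of 1.89, and 28.3 CPM (26.04 to 30.7) against 3.72 CPM in C57BL/6, a log2 ratio of 2.63. The other naive neuron-like clusters of that size ranged from 0.208 CPM in cluster 10 to 8.94 CPM in cluster 2 in CAST/Ei, where the highest cell held 50.4% of the cluster 2 reads, and from 0.152 CPM in cluster 14 to 3.60 CPM in cluster 11 in C57BL/6. Cluster 10 had only 2 naive C57BL/6 cells, with 59.9 CPM (46.3 to 76.2), and 1 of them held all of its 66 reads. Both ligands were read together in some cells. Csf1 was detected in 4 of 17 naive CAST/Ei neuron-like cells with Il6 detected (23.5%) and in 9.16% of those without, and in 6 of 18 naive C57BL/6 cells with Il6 (33.3%) and in 1.67% of those without. In cultured cells it was 5 of 6 with Il6 against 49.2% of the others in CAST/Ei, and 4 of 5 against 47.8% in C57BL/6. Cluster 4 held 8 of the 17 naive CAST/Ei cells with Il6 and 9 of the 16 with Csf1, and 12 of the 18 naive C57BL/6 cells with Il6 and 6 of the 7 with Csf1.

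Around the 3 genes, the measured partners of the gp130 route did not lie on one side of 0 as a group. For culture, 23.8% of all genes were higher by 2-fold or more and 20.7% lower in CAST/Ei, and 21.1% and 23.1% in C57BL/6. Of the listed gp130 receptors 5 of 7 were in the table, and in cultured over naive CAST/Ei neuron-like cells 1 was higher by 2-fold or more and 2 lower (median log2 ratio -0.21, against 0.08 for all genes), while in C57BL/6 0 were higher and 2 lower (median -0.91, against -0.12). Il6st, the shared subunit, stood at 186 CPM in cultured and 214 CPM in naive CAST/Ei cells, and at 119.6 and 144.04 CPM in C57BL/6. Osmr, which pairs with gp130 to bind oncostatin M, had log2 ratios of -1.34 in CAST/Ei and -1.14 in C57BL/6. Il31ra, its partner in the receptor of the itch cytokine interleukin 31, had 10.6 CPM in cultured and 42.95 CPM in naive CAST/Ei cells, and 3.43 and 84.2 CPM in C57BL/6. Il11ra1, the interleukin 11 receptor, had log2 ratios of 1.08 in CAST/Ei and -0.79 in C57BL/6, from levels of at most 5.54 CPM.

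Of the kinases and adaptors of the route all 12 were in the table. In CAST/Ei 3 were higher by 2-fold or more and 0 lower in cultured cells (median 0.54), and in C57BL/6 1 was higher and 3 lower (median -0.13), near the shares of all genes, 23.8% higher and 20.7% lower in CAST/Ei and 21.1% and 23.1% in C57BL/6, except for the lower calls in CAST/Ei and the higher ones in C57BL/6. Jak1, the kinase bound to gp130, was 594 CPM in cultured and 968 CPM in naive CAST/Ei cells and 372 against 1117 CPM in C57BL/6, a log2 ratio of -1.58 there. Stat3 differed by less, with log2 ratios of 0.24 in CAST/Ei and 0.55 in C57BL/6. Of 18 STAT3 feedback and target genes in the table, 8 were higher and 1 lower in CAST/Ei (median 0.80) and 8 higher and 2 lower in C57BL/6 (median 0.77), against those same shares. Among the higher ones were the protease inhibitor gene Timp1, with log2 ratios of 5.86 in CAST/Ei and 4.54 in C57BL/6, and Gal, with 4.04 and 2.64. Fibroblast-like cells had more Timp1 than neuron-like cells, and it stood at 1786 CPM there in cultured CAST/Ei and 1669 CPM in cultured C57BL/6. Socs3 had 24.7 CPM in cultured and 16.9 CPM in naive CAST/Ei cells, and 6.37 against 23.7 CPM in C57BL/6, log2 ratios of 0.52 and -1.74.

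**Figure D4:**
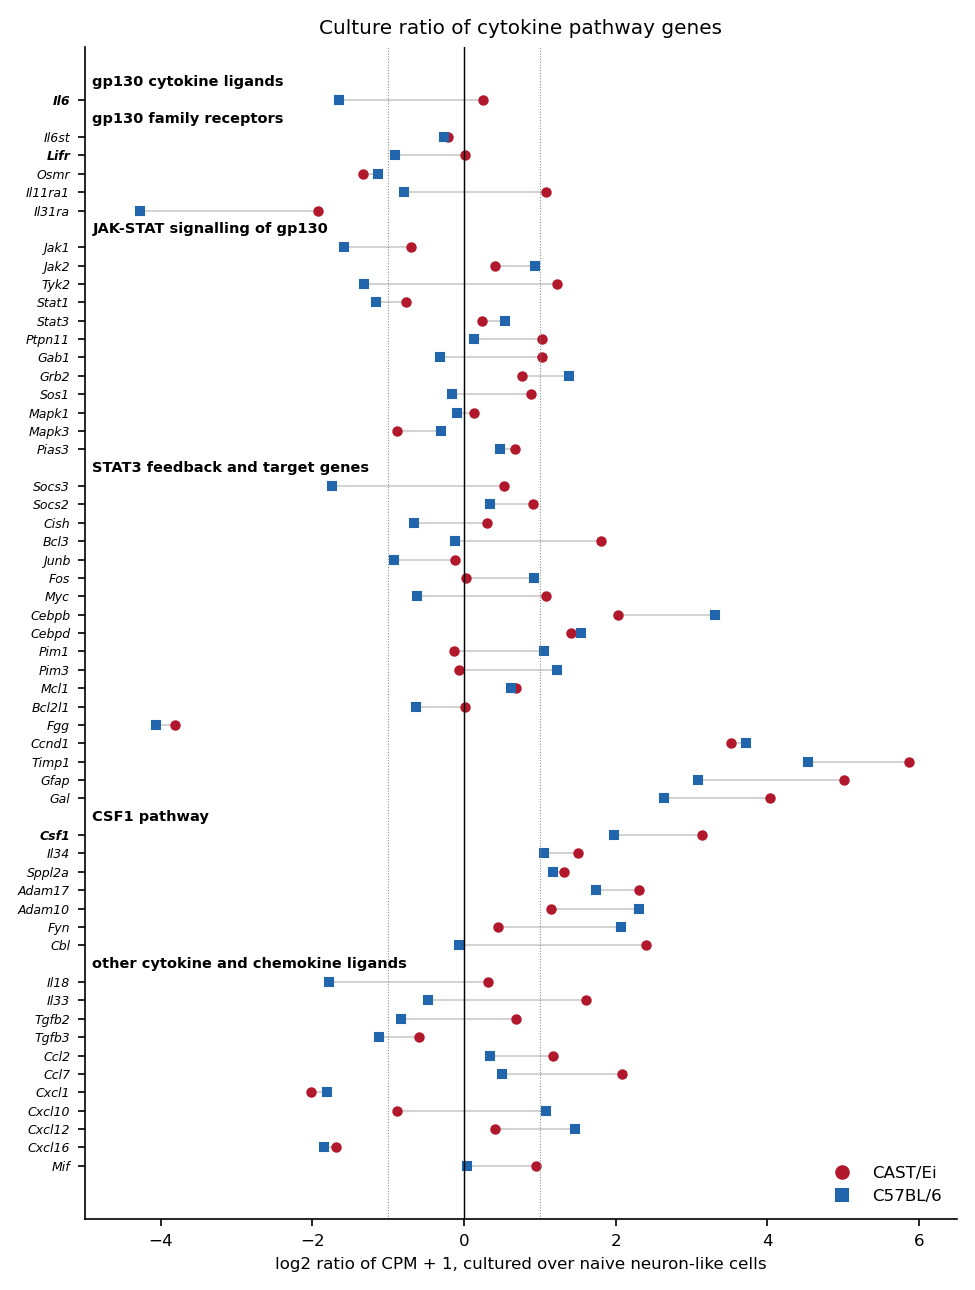
Points give the log2 ratio of CPM + 1 of cultured over naive neuron-like cells for Il6 and the listed receptor, signalling, target and other cytokine genes in the table, circles for CAST/Ei and squares for C57BL/6, with dotted lines at 2-fold. Csf1 and its pathway genes lie mostly right of 0, the gp130 receptors mostly left of it, and Il6 and Socs3 lie past 2-fold lower in C57BL/6 and within 2-fold in CAST/Ei.

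Of 11 listed genes around Csf1 7 were in the table, Csf1 included, and 6, with Csf1 among them, were higher by 2-fold or more in cultured cells and 0 lower in each strain. The medians were 1.51 in CAST/Ei and 1.74 in C57BL/6, where 23.8% and 21.1% of all genes were higher and the median of all genes was 0.08 and -0.12. Adam17, a protease that sheds Csf1 from the cell surface, had log2 ratios of 2.30 in CAST/Ei and 1.74 in C57BL/6, and the related protease gene Adam10 had 1.14 and 2.31. Il34, which encodes the other ligand of the same receptor, had 6.33 CPM in cultured and 1.58 CPM in naive CAST/Ei cells, and 2.88 and 0.866 CPM in C57BL/6. Between naive strains, 2 of the 5 gp130 receptors were lower by 2-fold or more and 0 higher in CAST/Ei, Lifr and Il11ra1 (log2 ratio -1.45), with a median of -0.96 against 0.09 for all genes, of which 6.43% were lower and 8.3% higher. Il6st (0.57) and Osmr (-0.08) differed by less than Lifr.

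Across 11 strata of group and class, the genes whose log2(CPM + 1) followed that of each gene most closely were named by Pearson's r, as a description of strata that share libraries. For Il6 these were Meis2 (0.94), Dcn (0.93), Plk3, Qpctl and Il15ra (0.91). For Lifr they were Elovl7 (0.96), Uchl1, Tagln3, Kcnab2 and Prune2 (0.95), and for Csf1 Mfge8 (0.96), Abracl, Fbn1, Wisp1 and Ddr2 (0.94). With 19 strata of group and cluster instead, Qpctl and Dcn remained for Il6, Prune2 for Lifr and Mfge8 and Fbn1 for Csf1. Among themselves the 3 genes were not alike, with r of 0.34 between Il6 and Lifr, 0.18 between Il6 and Csf1 and -0.63 between Lifr and Csf1.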

How the data were processed

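The deposited table, made by the authors, holds unnormalized read counts, with a column for each cell. Bowtie2, SAMtools and mm10 were used, per the submitters' processing notes. Which program counted the reads, with which annotation and filters, is not given in the sources used here. Each gene in the table has reads in at least 60 cells, and no 2 cells have identical counts. CAST/Ei reads differ from the mm10 sequence at strain variants, which can lower their counts, and the size of this was not tested.

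The 3 genes, the pathway and marker lists and the comparisons were chosen with earlier results of these data known. Cells were clustered in Python 3.11.15 with scanpy 1.11.5, leidenalg 0.10.2 and scikit-learn 1.9.0 on log2(CPM + 1) of 11196 genes, leaving out 55 genes of the members and pathway lists (2000 variable genes, 20 principal components, 15 neighbours, Leiden resolution 1). A cluster took the class of the marker list with the highest mean, unless its 10 leading genes held more markers of another class. No doublet caller was run, and leaving out cells high in glial markers stood in as an alternative. Reads were summed per class and group and compared as log2 ratios of CPM + 1. Exact Poisson and Clopper-Pearson intervals came from SciPy 1.17.1. For shares of cells, those with 200000 reads or more were thinned to 200000. Named genes are the 3 members, members of the pathway lists, leading genes and markers of clusters, and the 5 genes with the highest Pearson's r to each member. The steps were also run on simulated data. No test was made between groups, since each is 1 sample.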

Additional observations from a re-analysis of the deposited data

Results flagged for a closer look

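Il6 and Lifr stood out because the log2 ratio of cultured over naive neuron-like cells had another sign in each strain. For Il6 it was 0.25 in CAST/Ei and -1.64 in C57BL/6, and for Lifr it was 0.01 in CAST/Ei and -0.91 in C57BL/6. With 1 sample per group the difference between the strains was not tested. For Lifr no other direction is shown, since the CAST/Ei value lies near 0, its counting intervals overlap and it falls below 0 under 4 of the other settings. The Il6 value in CAST/Ei was -0.02 with thinned cells.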

How the results depend on the processing

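Log2 ratios of neuron-like cells are given for Il6, Lifr and Csf1 in that order, and the cause of each shift was not tested. As reported they were 0.25, 0.01 and 3.14 for culture in CAST/Ei, -1.64, -0.91 and 1.97 for culture in C57BL/6, and -0.18, -1.73 and -0.50 between the naive strains and 1.71, -0.80 and 0.66 between the cultured strains. Median-of-ratios scaling gave 0.17, -0.08 and 3.06 for culture in CAST/Ei and -1.53, -0.79 and 2.09 for culture in C57BL/6, and -0.28, -1.82 and -0.59 between the naive strains and 1.48, -1.05 and 0.42 between the cultured strains. A pseudocount of 10 CPM gave 0.19, 0.01 and 2.28 for culture in CAST/Ei and -1.08, -0.91 and 1.43 for culture in C57BL/6, and -0.14, -1.71 and -0.27 between the naive strains and 1.13, -0.79 and 0.58 between the cultured strains. The mean of CPM over cells gave 0.04, -0.23 and 3.02 for culture in CAST/Ei and -0.81, -0.75 and 2.11 for culture in C57BL/6, and -0.20, -1.86 and -0.47 between the naive strains and 0.65, -1.35 and 0.44 between the cultured strains. Cells thinned to 200000 reads gave -0.02, -0.12 and 3.17 for culture in CAST/Ei and -0.75, -0.82 and 2.40 for culture in C57BL/6, and -0.18, -1.85 and -0.21 between the naive strains and 0.55, -1.15 and 0.56 between the cultured strains. Leaving out the highest cell of each set gave 0.34, -0.13 and 3.12 for culture in CAST/Ei and -2.05, -1.0 and 1.97 for culture in C57BL/6, and -0.67, -1.75 and -0.42 between the naive strains and 1.71, -0.89 and 0.73 between the cultured strains. Leaving out cells high in glial markers gave 1.68, 0.32 and 3.74 for culture in CAST/Ei and -2.79, -0.80 and 2.06 for culture in C57BL/6, and -1.0, -1.64 and -0.71 between the naive strains and 3.47, -0.51 and 0.98 between the cultured strains. Classing each cell by its own markers gave 0.49, 0.19 and 3.09 for culture in CAST/Ei and -2.20, -1.03 and 2.36 for culture in C57BL/6, and -0.24, -1.84 and -0.11 between the naive strains and 2.45, -0.62 and 0.63 between the cultured strains. Leaving out cells high in fibroblast markers gave 1.18, 0.36 and 2.97 for culture in CAST/Ei and -4.60, -0.85 and 1.65 for culture in C57BL/6, and -0.21, -1.75 and -0.76 between the naive strains and 5.58, -0.54 and 0.57 between the cultured strains. Counting cluster 8 as neuron-like gave -1.69, -1.03 and 2.36 for culture in C57BL/6 and -0.24, -1.84 and -0.12 between the naive strains. The last 2 settings were chosen after the data had been seen. Of the values under these settings, 5 changed sign, all for culture in CAST/Ei, 4 of them for Lifr and 1 for Il6. Csf1 kept its sign and stayed past 2-fold for culture in both strains under every setting run, and Lifr stayed more than 2-fold lower in naive CAST/Ei. Il6 came short of 2-fold for culture in C57BL/6 with equal weight per cell and with thinned cells. With each cell classed by its own markers Il6 in cultured C57BL/6 neuron-like cells was 5.89 CPM, Lifr in C57BL/6 glia-like cells 184 CPM and Csf1 there 29.9 CPM. The shares of all genes past 2-fold moved little with a minimum of 10 CPM, to 25.6% higher and 19.8% lower for culture in CAST/Ei and 22.7% each way in C57BL/6. No paired analysis was possible because each group is 1 sample and the numbers in the labels count cells. Depth limits Il6 in glia-like cells, where 0 reads in cultured CAST/Ei allow up to 0.166 CPM.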

Other observations

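Among other cytokine and chemokine ligands, 11 of 29 listed genes were in the table. In cultured over naive neuron-like cells 3 were higher by 2-fold or more and 2 lower in CAST/Ei, and 2 were higher and 4 lower in C57BL/6. Of all genes 23.8% were higher and 20.7% lower in CAST/Ei, and 21.1% and 23.1% in C57BL/6. Ccl2, which attracts monocytes, had 92.8 CPM in cultured and 40.5 CPM in naive CAST/Ei cells, and 104.7 and 81.9 CPM in C57BL/6. Cxcl1, which attracts neutrophils, was lower in culture in both strains, with log2 ratios of -2.02 in CAST/Ei and -1.80 in C57BL/6. Cxcl10, an interferon-induced chemokine, had 7.14 CPM in cultured and 13.97 CPM in naive CAST/Ei cells, and 89.1 and 41.6 CPM in C57BL/6, log2 ratios of -0.88 and 1.08.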
